A study of Homo sapiens with 12 samples.

Results

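The response of ARID1B-knockout HepG2 cells to sorafenib was measured by RNA sequencing. The members are the 6 libraries whose titles give the ARID1B-knockout genotype, out of 12 in the series. In 3 of them the cells had been given 5 µM sorafenib for 48 h, and in 3 only the vehicle DMSO, at 0.1% by volume. HepG2 is an established cell line from a human liver tumour. The knockout (ARID1B-KO) was made with CRISPR/Cas9, so all 6 libraries carry it. How many clones the knockout line comprises is not stated in the labels. The replicates are stated to be biological. The other 6 libraries are wild-type HepG2 cells under the same 2 treatments. They enter here for comparison, and also in the filter and the fits, which estimate the spread between replicates from all 12 libraries.

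Sorafenib is an oral inhibitor of the RAF kinases and of several receptor tyrosine kinases, among them those for VEGF and PDGF, and is used against advanced liver cancer. Downstream of RAF, the kinases MEK and ERK drive the transcription of early growth genes and of their own inhibitors, such as the dual-specificity phosphatases and the Sprouty and SPRED proteins. The transcripts of these inhibitors are therefore widely read as a measure of ERK output. ARID1B is a subunit of the canonical BAF complex, a chromatin remodeller that moves nucleosomes with the energy of ATP. Hepatocytes secrete most plasma proteins, make bile acids from cholesterol and modify drugs, and HepG2 cells keep part of this programme.

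Levels are given in CPM, counts scaled to library size with TMM factors. Changes are log2 fold changes of sorafenib against DMSO ± standard error, n = 3 libraries a group. A gene was called when its adjusted p was under 0.05 in the quasi-likelihood test of edgeR. Only such genes are said to have risen or fallen. The 6 libraries held 19739582 to 27445013 estimated counts. Their first principal component took 53.4% of the variance and separated the 3 sorafenib from the 3 DMSO libraries. The second took 16% and had replicate 1 high and replicate 3 low within both treatments. Mitochondrially encoded genes made up 6.75% to 12.22% of the counts with DMSO and 9.08% to 12.27% with sorafenib. Of 8 hepatocyte markers, 8 reached 1 TPM in a library, and their summed level was 69300 to 81900 TPM with DMSO and 100000 to 137000 TPM with sorafenib. ALB held most of it, with 52964 to 60026 TPM and then 74080.2 to 102009.5 TPM. Of these 8 markers 5 rose, APOB fell and TTR and AHSG did not pass the test. Of the 8 endothelial markers, 5 stayed under 0.1 TPM in all 6 libraries. The same held for 6 of 8 leukocyte markers and for 5 of 8 fibroblast and stellate markers. The summed level of the latter was 33.2 to 34.7 TPM with DMSO and 55.5 to 70.8 TPM with sorafenib, most of it ACTA2, which rose, while PDGFRB fell. Cholangiocyte markers, some of which liver tumour cells also express, summed to 773 to 901 TPM with DMSO and 823 to 1160 TPM with sorafenib, with 2 of 8 under 0.1 TPM in all 6 libraries. KRT19 and SPP1 rose among the 5 of them tested, with a median of 0.49, and none was called without sorafenib replicate 1. The part of these markers in the results was not tested. In such bulk libraries, fewer cells of a type and less RNA per cell cannot be told apart.

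ARID1B itself (ENSG00000049618.25, GRCh38 chromosome 6, 156776020 to 157210779) had 26.4, 28.0 and 27.5 CPM in DMSO-treated cells and 35.6, 25.9 and 26.5 CPM after sorafenib. Transcript of the targeted gene thus remained in every library, and its change of 0.10 ± 0.11 did not pass the test (edgeR adjusted p = 0.484). Wild-type libraries had 58.4, 61.9 and 66.7 CPM under DMSO and 67.5, 69.1 and 62.3 CPM under sorafenib. Of 26 BAF and PBAF subunit genes tested, 4 rose and 5 fell, with a median change of -0.08. Of all genes tested, 23% rose and 23.7% fell. With average transcript length added to the model, 2 subunit genes were called higher and 2 lower. The catalytic subunit SMARCA4 fell from 139 to 100.5 CPM (-0.47 ± 0.09), while its paralog SMARCA2 rose from 16.4 to 20.2 CPM (0.30 ± 0.10). The core subunit SMARCC1 fell by 0.46 ± 0.08 and its paralog SMARCC2 rose by 0.74 ± 0.10 on the log2 scale. The calls of SMARCA4, SMARCC1 and SMARCC2 were lost when average transcript length was added to the model, and that of SMARCA2 without DMSO replicate 2 or 3 or sorafenib replicate 3. SMARCD3 rose from a low level, 0.143, 0.404 and 0.240 CPM, to 1.18, 1.33 and 1.53 CPM.

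Sorafenib changed 5982 of the 12821 genes tested in ARID1B-KO (46.7%). Of these, 2947 rose (23% of those tested) and 3035 fell (23.7%). The median change over all genes was 0.01, and over the called genes the median size was 0.61 on the log2 scale. Changes over 2-fold were more often rises, with 866 genes against 535 falls. The 3 sorafenib libraries did not overlap the 3 DMSO libraries for 52.9% of genes. Counts of listed genes, above and below, are to be read against these shares. Of the called genes named in what follows, BCL2L11, FADS1, LSS, MKI67, MT2A and UTP4 had overlapping groups, and in all others the groups were apart.

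**Figure D1:**
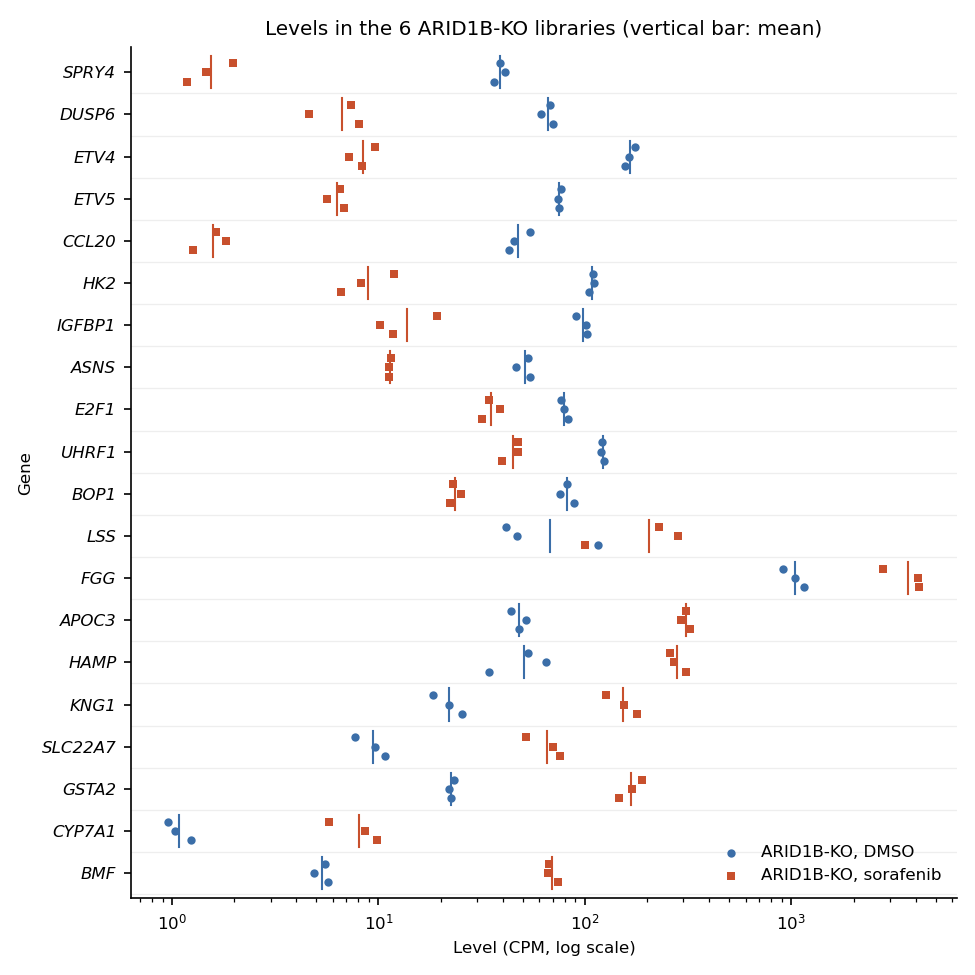
Level of 20 genes in each of the 6 ARID1B-KO libraries, in CPM on a log axis, with DMSO as circles, sorafenib as squares and group means as vertical bars. The first 11 genes lie lower in every sorafenib library and the last 8 lie higher, with no overlap, whereas LSS overlaps between groups.

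Targets of ERK were among the steepest falls. SPRY4, a Sprouty inhibitor of receptor tyrosine kinase signalling, stood at 36.1, 41.0 and 38.6 CPM in the DMSO libraries and 1.18, 1.47 and 1.98 CPM with sorafenib. That is a 25.2-fold lower level (-4.66 ± 0.19, edgeR adjusted p = 3.88e-09). The ERK phosphatase DUSP6 stood at 70.3, 61.6 and 67.9 CPM and then 8.04, 4.63 and 7.36 CPM (-3.32 ± 0.16). SPRED1 and SPRED2, which hold RAS back through neurofibromin, fell by 2.49 ± 0.19 and 1.98 ± 0.08 on the log2 scale. SPRY2 fell from 9.50 to 3.91 CPM. Of the 8 feedback inhibitors tested, 6 fell and 0 rose, with a median of -1.63. Those not called, DUSP4 and DUSP5, were under 1 CPM in the mean of both groups.

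The ETS factors ETV4 and ETV5, transcription factors induced by ERK, fell with the inhibitors. ETV4 stood at 157, 164 and 174 CPM with DMSO and 8.33, 7.20 and 9.68 CPM with sorafenib (-4.30 ± 0.11, edgeR adjusted p = 5.7e-11). ETV5 went from 75.1 to 6.32 CPM (-3.57 ± 0.09). The ephrin receptor EPHA2 fell by 2.42 ± 0.16, the AP-1 subunit FOSL1 by 1.77 ± 0.20 and the adaptor SH2B3 by 1.57 ± 0.14. MYC, the growth-promoting transcription factor, fell more moderately, from 130.4, 154 and 155 CPM to 77.2, 75.1 and 82.2 CPM (-0.91 ± 0.09). Of 11 such output genes, 6 fell and 1 rose, the riser being PHLDA1 (0.47 ± 0.08).

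Several genes often used as ERK readouts did not pass the test. CCND1, the G1 cyclin D1, stood at 322, 297 and 281 CPM and 281, 281 and 277 CPM (-0.10 ± 0.08, edgeR adjusted p = 0.351). The early gene EGR1 stood at 5.80, 10.8 and 7.21 CPM and 6.61, 10.5 and 6.42 CPM (-0.02 ± 0.28), so its groups overlapped. FOS had a change of 0.41 ± 0.28, not past the test. Of 7 other AP-1 and related subunits tested besides FOSL1, 3 rose and none passed the test as lower. JUN rose from 18.2 to 41.4 CPM (1.19 ± 0.15) and JUND by 0.62 ± 0.08. The early gene KLF10 fell by 1.41 ± 0.09 and the antiproliferative BTG2 rose by 0.61 ± 0.11.

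Within the kinase cascade, 4 of 11 genes rose and 2 fell, with a median of 0.02 and changes of -0.92 to 0.69. Over the cascade and the receptors, 5 genes were called lower, and 3 with transcript length in the model. BRAF rose from 18.2 to 27.0 CPM (0.57 ± 0.09) and MAPK3, which encodes ERK1, rose by 0.69 ± 0.07. Of the receptor kinases, FGFR3 went from 204 to 457 CPM (1.16 ± 0.11) and FGFR1 from 131 to 52.7 CPM (-1.31 ± 0.15). PDGFRB, a direct target of the drug, fell from 3.74 to 1.20 CPM, a call that was lost with transcript length in the model.

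The BCL2 family did not move as a unit. Of 12 members listed and tested, MCL1 not among them, 3 rose and 3 fell, against 23% and 23.7% of all genes. Of the 6 pro-apoptotic BH3-only members tested, BMF and BBC3 rose and 1 fell, with a median of 0.05. BMF stood at 5.70, 4.85 and 5.48 CPM with DMSO and 74.4, 65.9 and 66.9 CPM with sorafenib, a 12.9-fold difference (3.69 ± 0.10, edgeR adjusted p = 8.12e-11). BBC3, also called PUMA, went from 11.9 to 29.7 CPM (1.32 ± 0.14). BCL2L11, which encodes BIM, went the other way, from 10.3 to 4.71 CPM (-1.12 ± 0.36). Its call was lost without DMSO replicate 1 or 2, without sorafenib replicate 2 or 3, and in the fit of the 6 ARID1B-KO libraries alone. The anti-apoptotic BCL2L1 fell from 265 to 140.4 CPM (-0.92 ± 0.08) and MCL1 by 0.37 ± 0.07. BCL2 was low throughout, at 0.808, 0.539 and 1.06 CPM with DMSO and 0, 0.183 and 0.0987 CPM with sorafenib, and fell.

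Of 25 p53 targets tested, 15 rose and 4 fell, with a median of 0.39. TP53INP1, which promotes p53 activity, rose from 27.2 to 63.3 CPM (1.22 ± 0.09). The repair factor DDB2 rose by 0.79 ± 0.07, the oxidoreductase TP53I3 by 1.01 ± 0.11 and CDKN1A, the cell cycle inhibitor p21, by 0.63 ± 0.10. The 4 that fell were AEN, MDM2, TIGAR and PLK3, of which PLK3 and TIGAR were not called with transcript length in the model. AEN, an apoptosis nuclease, fell by 0.81 ± 0.07, and MDM2, the ubiquitin ligase that degrades p53, fell from 257 to 173 CPM (-0.57 ± 0.08).

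Genes of the G1 to S transition and of DNA replication fell. All 5 E2F factors tested fell. E2F1, an activator of S phase genes, stood at 82.5, 79.1 and 76.7 CPM with DMSO and 31.6, 38.7 and 34.5 CPM with sorafenib (-1.19 ± 0.09, edgeR adjusted p = 3.77e-07). E2F2 fell by 1.53 ± 0.11 and E2F3 by 1.11 ± 0.10. Of 7 G1 cyclins and kinases, 5 fell, including CCND3 by 1.29 ± 0.14 and CCNE2 by 1.36 ± 0.21.

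Replication origins are licensed by loading the MCM2 to MCM7 helicase with the help of CDC6 and CDT1. Of 17 licensing and origin genes, 15 fell and none rose, with a median of -0.81. CDC6 went from 81.1 to 32.0 CPM (-1.34 ± 0.10) and MCM7 from 193 to 95.9 CPM (-1.01 ± 0.08). MCM6 stood at 67.4, 58.3 and 62.8 CPM and 25.5, 30.4 and 32.2 CPM. The exceptions were CDT1 (0.04 ± 0.07) and GMNN (-0.15 ± 0.14), the licensing factor and its inhibitor geminin, which did not pass the test.

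Of 18 polymerase, primase and clamp genes, 12 fell, among them the catalytic subunit POLA1 (-0.80 ± 0.08) and the flap nuclease FEN1 (-1.0 ± 0.08). Of the 6 genes of nucleotide supply, 4 fell. RRM2, the regulated subunit of ribonucleotide reductase, stood at 263, 259.9 and 287 CPM and 88.0, 102 and 107 CPM (-1.45 ± 0.11), whereas TYMS had a change of -0.07 ± 0.10. All 5 genes of chromatin assembly and methylation on new DNA fell. UHRF1, which brings DNMT1 to replicated DNA, stood at 124, 119.9 and 121 CPM and 39.8, 47.5 and 47.4 CPM (-1.44 ± 0.08), and DNMT1 fell by 0.72 ± 0.10, though not with transcript length in the model.

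Promoters of 29 of the tested replication genes were found in the RefSeq table (build GRCh38.p14), which holds the 250 bases before and 50 bases after each start. They were searched on both strands for the E2F site, taken as TTTGGCGC, TTTCCCGC or TTTCGCGC. A match was present in 16 of 29 (55.2%), against 4.9% of 7028 tested genes with a promoter, 6.9% of those that fell and 2.8% of those that rose. The 250 bases before the start are shown for MCM6 (GRCh38.p14, chr2:135876444-135876693, minus strand), which has overlapping matches at each of 2 places, and for POLA1 (chrX:24693668-24693917, plus strand). Capitals mark the matches.
MCM6: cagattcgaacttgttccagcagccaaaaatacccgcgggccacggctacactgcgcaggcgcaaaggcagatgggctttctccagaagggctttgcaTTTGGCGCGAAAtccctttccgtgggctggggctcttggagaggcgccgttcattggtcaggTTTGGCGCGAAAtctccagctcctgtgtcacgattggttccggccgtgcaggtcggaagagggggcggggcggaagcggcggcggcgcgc
POLA1: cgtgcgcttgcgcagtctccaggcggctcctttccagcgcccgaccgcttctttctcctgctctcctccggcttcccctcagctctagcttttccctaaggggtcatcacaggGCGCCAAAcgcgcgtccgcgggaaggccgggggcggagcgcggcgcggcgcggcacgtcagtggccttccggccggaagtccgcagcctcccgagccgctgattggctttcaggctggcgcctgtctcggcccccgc
Here and for the sites searched below, a match describes these letters only, and no binding was measured. The share of a list's promoters with a site does not depend on the drug.

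The median of the mitotic genes lay nearer to 0 than that of the replication genes, a difference that was not tested. Of 34 tested, 15 fell and 2 rose, with a median of -0.21, against -0.65 for the 46 replication genes. Without sorafenib replicate 1, 8 mitotic genes were called lower, and 1 was called higher without DMSO replicate 1 or sorafenib replicate 2 or 3. The mitotic kinase PLK1 fell by 0.54 ± 0.09, cyclin A2 (CCNA2) by 0.54 ± 0.12, the spindle factor TPX2 by 0.39 ± 0.08 and the motor KIF11 by 0.44 ± 0.09. MKI67, the proliferation marker, went from 217 to 172 CPM (-0.34 ± 0.13, edgeR adjusted p = 0.0479), and its call was lost under 9 of the 13 other settings. TOP2A (-0.13 ± 0.10) and CCNB1 (-0.24 ± 0.11) did not pass the test. The mitotic members that rose were KIF20A (0.28 ± 0.10) and CDC25B (0.26 ± 0.07). The call of KIF20A was lost without DMSO replicate 1 or 3 or sorafenib replicate 2 or 3.

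Replication-dependent histone messages normally lack a poly(A) tail, and the labels give the RNA as polyA RNA. Of 16 tested, 10 rose and none fell, with a median of 0.96. H2AC6 went from 4.27 to 11.9 CPM (1.47 ± 0.12), H2BC21 from 2.62 to 8.98 CPM (1.78 ± 0.16) and H3C10 from 2.75 to 9.84 CPM (1.84 ± 0.20). H4C15 was called from 0.0951, 0 and 0 CPM to 2.86, 2.43 and 1.88 CPM, while its near-identical neighbour H4C14 was at 0.475, 0.988 and 1.11 CPM and 0.0841, 0.779 and 1.83 CPM. Reads can be split between such copies, so both are uncertain.

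Genes of ribosome biogenesis fell. Of 23 nucleolar genes tested, 22 fell, with a median of -1.12. BOP1, which processes the large subunit's ribosomal RNA, stood at 88.5, 75.6 and 82.0 CPM with DMSO and 22.3, 25.2 and 23.0 CPM with sorafenib (-1.80 ± 0.09, edgeR adjusted p = 1.33e-08). NOLC1, a scaffold of RNA polymerase I and nucleolar RNA particles, stood at 179, 184 and 190.1 CPM and 64.8, 64.0 and 68.5 CPM (-1.49 ± 0.08). The assembly factor RRS1 fell by 1.58 ± 0.09 and MRTO4 fell by 1.39 ± 0.09. Nucleolin (NCL), among the most abundant nucleolar proteins, fell by 0.97 ± 0.10. The member not called was NOB1 (0.12 ± 0.08), an endonuclease of late small subunit maturation.

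MYC binds the E-box CACGTG. Among the 13 of these genes with a RefSeq promoter, 7 (53.8%) held CACGTG, whose reverse complement is the same, against 10.5% of all 7028 promoters. The share was 13.6% among genes that fell and 9.1% among genes that rose. The list was drawn up for ribosome biogenesis and MYC, and a part of MYC in these falls was not tested. UTP20 (GRCh38.p14, chr12:101279855-101280104, plus strand) and UTP4 (chr16:69132399-69132648, plus strand), both of the small subunit processome, are shown. Each has a single E-box within 20 bases of its start. Capitals mark it.
UTP20: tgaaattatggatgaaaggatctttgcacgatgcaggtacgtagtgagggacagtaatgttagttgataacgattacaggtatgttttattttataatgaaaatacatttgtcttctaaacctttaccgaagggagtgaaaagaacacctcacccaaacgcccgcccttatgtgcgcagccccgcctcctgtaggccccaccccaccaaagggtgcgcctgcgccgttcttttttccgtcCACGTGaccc
UTP4: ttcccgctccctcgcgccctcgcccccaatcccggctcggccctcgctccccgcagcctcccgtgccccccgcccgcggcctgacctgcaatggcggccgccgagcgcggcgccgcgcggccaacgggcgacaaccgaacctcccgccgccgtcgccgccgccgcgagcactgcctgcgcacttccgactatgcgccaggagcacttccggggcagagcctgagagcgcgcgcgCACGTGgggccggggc
UTP20 stood at 57.1, 73.6 and 67.3 CPM and 28.1, 30.6 and 28.5 CPM (-1.18 ± 0.11). UTP4 stood at 58.9, 34.8 and 47.4 CPM and 13.8, 12.3 and 37.2 CPM (-1.16 ± 0.37), so its groups overlapped. It was called, but not without DMSO replicate 1 or 3 or sorafenib replicate 1 or 2.

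Chaperone genes of the cytosol and mitochondria fell, 23 of 27 in the list, and none rose, though 1 was called higher without DMSO replicate 3 or sorafenib replicate 1. All 8 subunit genes of the chaperonin TRiC, which folds actin and tubulin, fell, with changes of -0.82 to -0.45. All 8 genes of HSP90 and its co-chaperones fell, with a median of -0.69. FKBP4, the HSP90 partner in steroid receptor complexes, stood at 135, 129 and 146 CPM and 45.4, 52.1 and 55.1 CPM (-1.42 ± 0.09, edgeR adjusted p = 9.41e-08). CHORDC1 stood at 114, 101 and 120.2 CPM and 48.3, 53 and 60.8 CPM (-1.05 ± 0.11). STIP1, which links HSP70 to HSP90, fell by 0.62 ± 0.07. The constitutive HSP70 gene HSPA8 fell by 0.77 ± 0.11 and the HSP110 gene HSPH1 by 0.82 ± 0.08.

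The heat shock element was searched as GAANNTTC, its own reverse complement. It was present in 5 of 16 promoters of this list (31.2%) and in 4.5% of all 7028. The share was 4.3% among genes that fell and 4.9% among genes that rose. CHORDC1 (GRCh38.p14, chr11:90223050-90223299, minus strand) is shown, with its 3 matches in capitals.
CHORDC1: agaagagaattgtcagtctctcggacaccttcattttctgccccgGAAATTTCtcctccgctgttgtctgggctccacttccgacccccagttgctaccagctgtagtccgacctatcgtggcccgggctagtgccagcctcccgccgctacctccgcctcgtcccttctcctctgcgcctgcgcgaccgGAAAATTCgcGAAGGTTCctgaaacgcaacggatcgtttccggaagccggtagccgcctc

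In the endoplasmic reticulum, 8 of 15 chaperone genes fell and none rose. HSPA5, the luminal HSP70 known as BiP, fell by 0.77 ± 0.14 and its partner DNAJB11 fell by 0.77 ± 0.12. SDF2L1 fell by 1.18 ± 0.12 and the secreted MANF fell by 0.69 ± 0.13. The transcription factor XBP1 fell from 305 to 193 CPM (-0.66 ± 0.12). HSP90B1 (0.04 ± 0.13), P4HB (-0.03 ± 0.17) and PDIA6 (-0.05 ± 0.13) did not pass the test. HERPUD1, of the degradation machinery, rose by 0.36 ± 0.08, a call lost with transcript length in the model.

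Genes that charge tRNAs fell, while genes of amino acid synthesis and stress regulators moved in both directions. All 12 cytosolic tRNA synthetase genes tested fell, with a median of -0.65. YARS1 stood at 104, 104 and 115 CPM and 44.5, 46.2 and 48.5 CPM (-1.21 ± 0.08). ASNS, asparagine synthetase, stood at 54.0, 46.5 and 53.3 CPM and 11.2, 11.2 and 11.6 CPM, a 4.53-fold lower level (-2.18 ± 0.12, edgeR adjusted p = 3.23e-08). MTHFD2, of mitochondrial one-carbon metabolism, went from 165 to 48.1 CPM (-1.78 ± 0.10), and PYCR1, the last step of proline synthesis, fell by 1.21 ± 0.08.

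Of 11 synthesis genes, 6 fell and 4 rose. The risers were PHGDH (0.35 ± 0.08), PSPH, CTH and CBS. With transcript length in the model PHGDH, CTH and CBS were not called, CTH was also lost on leaving out any 1 library other than sorafenib replicate 1, and PSPH was lost without DMSO replicate 2 or sorafenib replicate 2 or 3. Of 9 transporters, 5 fell and 1 rose. The falls included that of the cystine carrier SLC7A11, from 59.3 to 18.1 CPM (-1.71 ± 0.14). ATF4 itself, at 339.5, 375 and 432 CPM and 274, 311 and 349 CPM, did not pass the test (-0.30 ± 0.13, edgeR adjusted p = 0.0775). Its target TRIB3 fell by 0.51 ± 0.08. DDIT3, which encodes CHOP, did not pass the test either (0.51 ± 0.20, edgeR adjusted p = 0.0509). NUPR1, a stress-induced nuclear protein, rose from 3.28, 5.84 and 6.59 CPM to 29.4, 41.2 and 34.4 CPM (2.74 ± 0.23).

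The amino acid response element was searched as TGATGNAA on both strands. It was present in 5 of the 18 promoters found for this list (27.8%), against 1.4% of all 7028, 1.8% of genes that fell and 1.6% of genes that rose. IARS1 (GRCh38.p14, chr9:92293698-92293947, minus strand) and AARS1 (chr16:70289507-70289756, minus strand), synthetases for isoleucine and alanine, each had 1 match, in capitals and on the opposite strand.
IARS1: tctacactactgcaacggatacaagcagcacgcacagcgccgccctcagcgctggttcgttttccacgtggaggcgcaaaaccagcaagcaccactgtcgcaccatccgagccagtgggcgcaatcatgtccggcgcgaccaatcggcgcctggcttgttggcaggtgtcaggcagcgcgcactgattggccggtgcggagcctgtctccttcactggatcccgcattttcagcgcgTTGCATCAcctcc
AARS1: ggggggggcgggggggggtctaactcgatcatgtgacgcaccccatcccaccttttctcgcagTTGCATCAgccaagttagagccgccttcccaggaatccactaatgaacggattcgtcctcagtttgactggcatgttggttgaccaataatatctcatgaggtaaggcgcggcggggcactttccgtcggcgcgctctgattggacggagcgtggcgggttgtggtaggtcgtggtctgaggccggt
IARS1 fell from 195, 206 and 209 CPM to 104, 108 and 102 CPM (-0.96 ± 0.08), and AARS1 from 171, 151 and 146 CPM to 113, 119.9 and 113 CPM (-0.44 ± 0.08). The ETS site CAGGAAGT, searched on both strands, was in none of 7 promoters found for ERK targets and in 3.4% of all 7028.

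Among glycolysis genes the largest fall past the test was that of HK2. HK2, the hexokinase of growing cells, stood at 104, 111 and 109.8 CPM with DMSO and 6.61, 8.25 and 11.8 CPM with sorafenib, 12.2-fold lower (-3.61 ± 0.17, edgeR adjusted p = 1.71e-08). The glucose carrier SLC2A1 fell from 189 to 73.7 CPM (-1.35 ± 0.21), enolase ENO1 by 0.76 ± 0.11 and LDHA by 0.59 ± 0.14. Of 17 genes, 10 fell and 1 rose, the riser being the regulator PFKFB4 (1.07 ± 0.12). Among hypoxia-inducible genes 4 of 11 rose, led by NDRG1, from 31.6 to 167 CPM (2.40 ± 0.13). VEGFA had a change of -0.16 ± 0.10, not past the test.

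**Figure D2:**
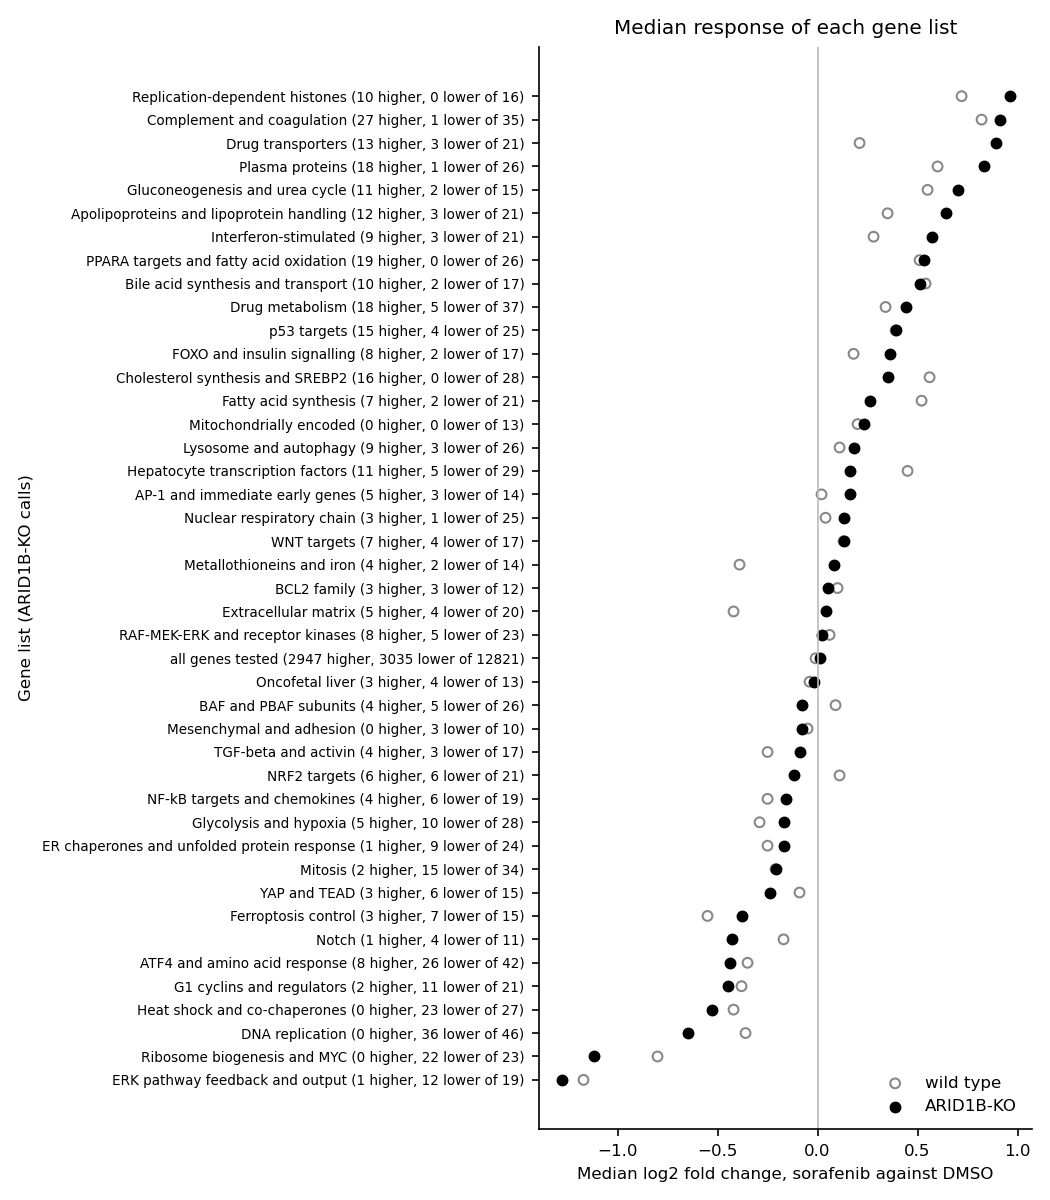
Median log2 fold change of each gene list, sorafenib against DMSO, with ARID1B-KO as filled and wild type as open circles. The counts beside each list are ARID1B-KO calls. ERK targets, ribosome biogenesis and DNA replication lie lowest in ARID1B-KO, and histones, complement and coagulation lie highest, around 0.01 for all genes tested.

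Most genes of secreted liver proteins rose. Of 17 coagulation genes tested, 15 rose and none fell, with a median of 1.04. Fibrinogen gamma (FGG) stood at 1156, 1038 and 914 CPM with DMSO and 4171, 4091 and 2765 CPM with sorafenib (1.83 ± 0.17, edgeR adjusted p = 3.44e-06). Fibrinogen alpha (FGA) rose by 1.51 ± 0.16 and beta (FGB) by 1.63 ± 0.19. KNG1, the kininogen from which bradykinin is cut, stood at 25.3, 21.9 and 18.4 CPM and 179.7, 155 and 126 CPM, 7.03-fold higher (2.81 ± 0.15). Prothrombin (F2) did not pass the test (0.04 ± 0.16).

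Of 18 complement genes, 12 rose. C4BPB, of the C4b-binding inhibitor, rose by 0.91 ± 0.10, and the proteases C1S and C1R by 1.69 ± 0.22 and 1.61 ± 0.22. MASP1, a protease of the lectin pathway, was the member that fell, from 37.5 to 17.1 CPM (-1.13 ± 0.15). C4A and C4B share nearly all their sequence, so their split is uncertain. Only C4B passed the test, at 1.32 ± 0.22.

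Among plasma carriers 8 of 11 rose and none fell. Albumin (ALB) made up 5.08%, 5.59% and 5.12% of the counts with DMSO and 9.63%, 8.93% and 6.86% with sorafenib (0.80 ± 0.19). Transferrin (TF) rose by 1.16 ± 0.15. SERPINA6, which carries cortisol, stood at 296, 324 and 260.2 CPM and 1053, 958 and 648 CPM (1.59 ± 0.16), and haptoglobin (HP) went from 258 to 909 CPM (1.81 ± 0.18). Transthyretin (TTR) did not pass the test (-0.15 ± 0.12). Of 15 acute phase proteins and inhibitors, 10 rose. ITIH1, of the inter-alpha inhibitors, stood at 8.37, 6.02 and 5.10 CPM and 37.4, 34.8 and 36.8 CPM (2.48 ± 0.15), while SAA4 fell from 325 to 149.5 CPM (-1.12 ± 0.12).

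Hepcidin (HAMP), the hormone that closes the iron exporter ferroportin, stood at 34.5, 65.0 and 52.8 CPM and 308, 269 and 259 CPM (2.46 ± 0.23, edgeR adjusted p = 4.62e-06). TFR2, the liver's iron-sensing transferrin receptor, rose by 1.47 ± 0.18, ferroportin (SLC40A1) by 1.15 ± 0.15 and the importer SLC11A2 by 0.69 ± 0.14. Of 9 iron genes, 4 rose. Of 5 metallothioneins, 2 fell, MT1X by 1.25 ± 0.32 and MT2A by 1.02 ± 0.27, though the groups of MT2A overlapped.

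Apolipoproteins did not move as a unit, with 7 of 12 higher and 3 lower. APOC3, an inhibitor of triglyceride clearance, stood at 48.0, 52.0 and 43.9 CPM with DMSO and 323, 291 and 308 CPM with sorafenib (2.68 ± 0.10, edgeR adjusted p = 2.91e-09). Its neighbours APOA5 and APOA4 rose by 2.27 ± 0.16 and 2.11 ± 0.16, and APOA1, the main protein of HDL, by 1.31 ± 0.15. APOB, the scaffold of VLDL and LDL, fell from 17400.0 to 9672 CPM (-0.85 ± 0.23), as did APOA2 (-0.90 ± 0.17) and APOF (-1.23 ± 0.22). MTTP, which loads lipid onto APOB, rose by 1.03 ± 0.13, and LCAT, which esterifies cholesterol on HDL, by 1.05 ± 0.09.

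**Figure D3:**
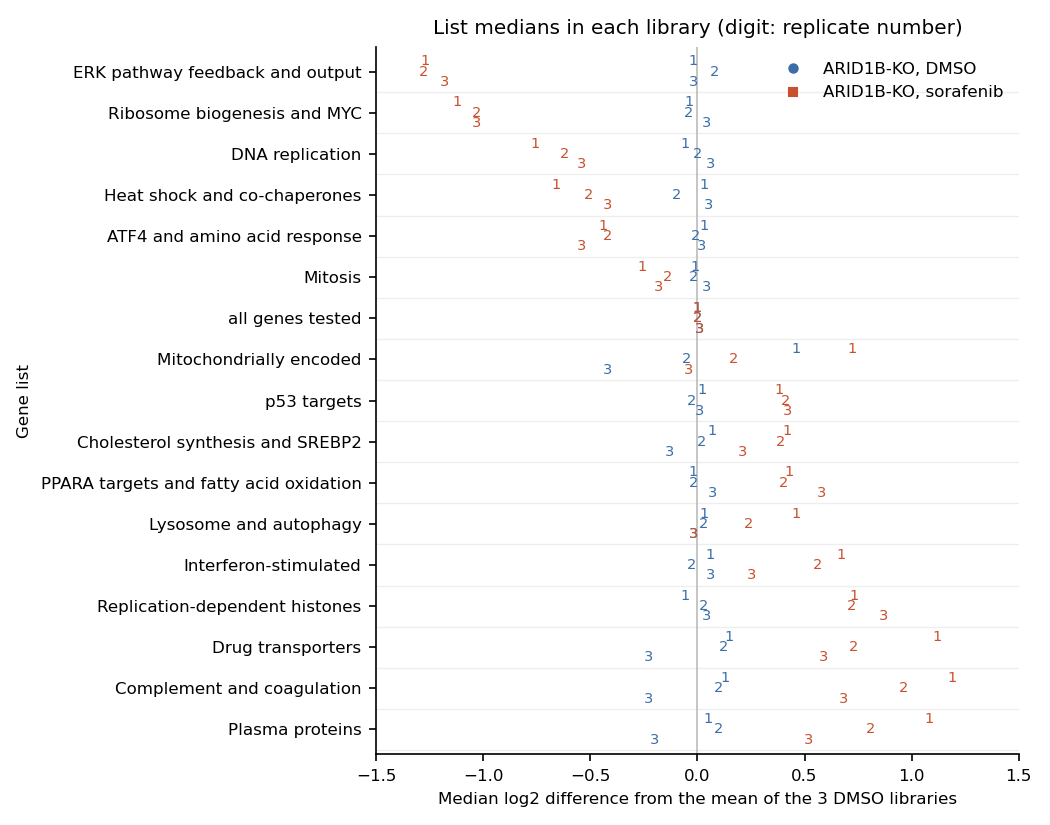
Median log2 difference of each list's genes from the mean of the 3 DMSO libraries, for each ARID1B-KO library, with digits giving the replicate number. The groups are apart for complement and coagulation and for ribosome biogenesis, whereas the mitochondrially encoded genes overlap.

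The secreted protein lists varied among libraries of a group. The median of complement and coagulation genes was 0.13, 0.1 and -0.23 under DMSO and 1.19, 0.96 and 0.68 under sorafenib, in replicate order, relative to the DMSO mean. For 13 mitochondrially encoded genes it was 0.46, -0.05 and -0.42 and 0.72, 0.17 and -0.04. Within each treatment both medians were lowest in replicate 3. Their part in the result was not tested. By contrast, the nucleolar list stood at -0.04, -0.04 and 0.04 and -1.12, -1.03 and -1.03. None of the 13 mitochondrially encoded genes passed the test, and of 25 nuclear respiratory chain genes 3 rose and 1 fell. These respiratory chain counts were not stable. Without DMSO replicate 1, 2 mitochondrially encoded genes were called higher, and the nuclear rises numbered 5 without DMSO replicate 3 and 1 without sorafenib replicate 2. The nuclear fall was lost without DMSO replicate 2 or 3 or sorafenib replicate 2 or 3.

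Among liver transcription factors, members moved in both directions. HNF4A, the factor that maintains hepatocyte identity, stood at 279.6, 244 and 236 CPM and 291, 270.2 and 276 CPM (0.14 ± 0.09, edgeR adjusted p = 0.221). Of 14 HNF, FOXA, CEBP and related factors, 3 rose and 3 fell. CEBPA rose by 0.22 ± 0.07, a call lost without DMSO replicate 2 or 3 or sorafenib replicate 2, and in the fit of the 6 ARID1B-KO libraries alone. Of 15 nuclear receptors, 8 rose and 2 fell. Over both groups of factors, 11 rises became 7 in the fit of the 6 ARID1B-KO libraries alone. With transcript length in the model, the 11 rises became 6 and the 5 falls became 3. NR1I2, the xenobiotic receptor PXR, stood at 4.61, 4.94 and 5.00 CPM and 15.7, 15.2 and 18.8 CPM (1.77 ± 0.13). RXRA, the common partner of many of these receptors, rose by 0.85 ± 0.10.

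In bile acid synthesis, 7 of 11 genes rose. CYP7A1, the rate-limiting enzyme, stood at 1.24, 1.03 and 0.961 CPM with DMSO and 9.85, 8.62 and 5.78 CPM with sorafenib (2.90 ± 0.20, edgeR adjusted p = 2.31e-07). CYP27A1, which starts the acidic route, rose by 0.99 ± 0.11, while CYP7B1, of the same route, was at 0.618, 0.449 and 0.529 CPM and 0.0421, 0.183 and 0.0494 CPM and fell. Leaving out any 1 library other than sorafenib replicate 2 ended the call of CYP7B1. NR0B2, which encodes SHP, the repressor of CYP7A1 induced by the bile acid receptor FXR, fell from 47.6 to 8.91 CPM (-2.42 ± 0.09). The bile acid exporter subunit SLC51B, another FXR target, fell from 23.8 to 4.13 CPM (-2.52 ± 0.16), whereas FXR itself (NR1H4) had a change of 0.09 ± 0.12, not past the test. KLB, the co-receptor for FGF19, rose from 226 to 639.7 CPM (1.5 ± 0.17).

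Of 37 genes of drug metabolism tested, 18 rose and 5 fell, and 8 were called lower without sorafenib replicate 1. Of 23 cytochrome P450 genes listed, 12 passed the filter on low counts, and of these 8 rose and 1 fell. CYP4F3 and CYP4F12, fatty acid hydroxylases, rose by 1.93 ± 0.12 and 1.43 ± 0.09. CYP3A43 stood at 1.09, 0.494 and 0.385 CPM and 7.36, 5.27 and 6.47 CPM (3.27 ± 0.39). CYP3A4, the main enzyme that oxidises sorafenib, was at 0.285, 0.539 and 0.433 CPM and 0.968, 0.596 and 0.592 CPM and did not pass the test (0.77 ± 0.85, edgeR adjusted p = 0.489). CYP1A1, a target of the dioxin receptor, fell from 6.11 to 1.29 CPM (-2.23 ± 0.60). Members of these families share sequence, so the split between the CYP3A genes is uncertain.

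Of 13 glutathione transferases 8 rose. GSTA2 stood at 22.4, 22.1 and 23.3 CPM and 146, 168 and 189 CPM (2.90 ± 0.12) and its close copy GSTA1 at 247, 232 and 258 CPM and 576, 699.5 and 737 CPM (1.45 ± 0.13). GSTK1 rose by 0.99 ± 0.08 and GSTO1 fell by 1.30 ± 0.14. UGT and SULT conjugation genes were divided, with 2 higher and 3 lower of 12. The members that rose were SULT2A1 (1.07 ± 0.11) and SULT1C2 (1.10 ± 0.21), and the falls were UGT2B4, UGT2B10 and UGT2B11 (-1.78 ± 0.16).

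Among uptake transporters, 8 of 10 rose. SLC22A7, the organic anion carrier OAT2, stood at 10.8, 9.65 and 7.69 CPM and 75.6, 70.2 and 51.6 CPM (2.81 ± 0.18, edgeR adjusted p = 1.59e-07). SLCO2B1 stood at 11.6, 12 and 9.37 CPM and 87.9, 78.8 and 56.7 CPM (2.76 ± 0.15). The member that fell was SLCO4A1 (-0.75 ± 0.14). Of 11 genes listed for efflux 5 rose, among them MVP (2.13 ± 0.13), which encodes a vault protein and not a pump. The multidrug pumps ABCG2 and ABCB1 were those that fell, ABCG2 from 23.5 to 10.3 CPM (-1.19 ± 0.15) and ABCB1 by 0.64 ± 0.18, the latter a call lost without DMSO replicate 1.

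In cholesterol synthesis 12 of 20 enzymes rose and none fell, with a median of 0.35. With their regulators, 16 of 28 genes rose, but 10 without sorafenib replicate 2 and 9 in the fit of the 6 ARID1B-KO libraries alone. MVK and MVD, which act on mevalonate, rose by 0.55 ± 0.11 and 0.54 ± 0.08, and TM7SF2 by 0.79 ± 0.16. LSS, which closes the sterol ring, was called at 1.59 ± 0.47 with 115, 46.7 and 41.3 CPM and 99.8, 283 and 228 CPM, so its groups overlapped. Its call was lost without DMSO replicate 2 or 3 or sorafenib replicate 2 or 3, and with a replicate block. HMGCS1 rose by 0.32 ± 0.10, a call lost without sorafenib replicate 3 and in the fit of the 6 ARID1B-KO libraries alone. The cholesterol carrier STARD4 rose by 0.58 ± 0.10.

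In fatty acid synthesis 5 of 17 enzymes rose and 2 fell. FASN had a change of -0.12 ± 0.15 and ACACA of 0.06 ± 0.50, neither past the test. The falls were ELOVL6 and FADS1, both lost without DMSO replicate 1 or 2 or sorafenib replicate 3, and ELOVL6 also without sorafenib replicate 2. ACSS2, which activates acetate, went from 101 to 255 CPM (1.33 ± 0.08), the triglyceride enzyme DGAT2 from 120.4 to 296 CPM (1.30 ± 0.15) and LPIN1 rose by 0.81 ± 0.11. MLXIPL, the carbohydrate-sensing factor ChREBP, rose by 1.20 ± 0.13.

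Of 16 fatty acid oxidation enzymes, 12 rose and none fell. ACADS rose by 0.98 ± 0.09 and the carnitine carrier SLC25A20 by 0.88 ± 0.09. CPT1A, the entry step of the pathway, did not pass the test (0.19 ± 0.17). PPARA, the receptor that governs these genes, rose by 0.83 ± 0.12. Its targets ANGPTL4 and CREB3L3 rose, ANGPTL4 from 1.19, 1.44 and 0.865 CPM to 8.37, 6.42 and 5.92 CPM (2.56 ± 0.26) and CREB3L3 by 1.79 ± 0.12. In gluconeogenesis 5 of 6 rose, including PCK1 (1.93 ± 0.17) and the coactivator PPARGC1A (0.70 ± 0.08). In nitrogen disposal 6 of 9 rose, including CPS1 (0.82 ± 0.11) and GLUL (0.82 ± 0.08), and 2 fell, with 1 called lower without DMSO replicate 2 or 3 or sorafenib replicate 1.

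Genes of insulin and PI3K signalling gave 8 rises and 2 falls of 17, with 5 called higher when transcript length was in the model. IGFBP1, a secreted binder of insulin-like growth factors, stood at 102, 101 and 90.7 CPM and 11.8, 10.2 and 19.2 CPM (-2.83 ± 0.20, edgeR adjusted p = 4.59e-07), and FOXO1 fell by 0.97 ± 0.10. PIK3IP1, an inhibitor of PI3K, stood at 2.23, 3.37 and 3.12 CPM and 22.9, 17.0 and 14.5 CPM (2.64 ± 0.21). The adaptor IRS1 rose by 0.90 ± 0.10.

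Redox genes controlled by NRF2 were divided, 6 higher and 6 lower of 21. AKR1B10, an aldo-keto reductase, stood at 346, 302 and 339 CPM and 34.4, 31.2 and 39.8 CPM (-3.23 ± 0.12, edgeR adjusted p = 2.91e-09). TXNRD1 fell by 0.74 ± 0.08 and GCLM, of glutathione synthesis, by 0.77 ± 0.09. HMOX1, haem oxygenase, rose from 48.5 to 77.3 CPM (0.67 ± 0.09), and NQO1 had a change of -0.25 ± 0.10, not past the test. AKR1C2 rose by 0.88 ± 0.10, though the AKR1C genes share sequence. Among genes of ferroptosis, a death by lipid peroxidation, 2 of 10 suppressors rose and 5 fell, among the latter SLC7A11 as above, VKORC1L1 by 0.71 ± 0.08 and ACSL3 by 1.15 ± 0.14. ACSL4, which promotes it, fell from 950.2 to 467 CPM (-1.02 ± 0.10), and GPX4 had a change of 0.31 ± 0.14, not past the test.

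The chemokine CCL20 fell from 43.0, 45.3 and 54.3 CPM to 1.26, 1.83 and 1.63 CPM, 30.2-fold lower (-4.92 ± 0.21, edgeR adjusted p = 6.45e-09). The adhesion molecule ICAM1 fell by 1.71 ± 0.18, while the death ligand TNFSF10, known as TRAIL, rose by 1.17 ± 0.11 and NFKBIA by 0.55 ± 0.10. Of 21 interferon-stimulated genes 9 rose and 3 fell, with 5 called lower without DMSO replicate 1. IFIT1 stood at 4.37, 3.37 and 4.57 CPM and 18.5, 22.7 and 21.1 CPM (2.34 ± 0.16) and IRF1 rose by 1.15 ± 0.13. The falls included OAS1 and OAS3 (-0.69 ± 0.09). In lysosome and autophagy 9 of 26 rose, including GABARAPL1 (1.09 ± 0.16), while the cargo receptor SQSTM1 (-0.84 ± 0.08) and WIPI1 (-0.56 ± 0.09) fell.

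Lists of developmental pathways had members moving in both directions. The YAP target CCN2 went from 189 to 36.6 CPM (-2.37 ± 0.16), with 6 of 15 YAP genes lower and 3 higher. LGR5, a WNT-induced receptor, stood at 50.9, 51.1 and 44.1 CPM and 7.32, 7.43 and 5.38 CPM (-2.86 ± 0.13), whereas RNF43 and TNFRSF19 rose by 0.78 ± 0.11 and 0.97 ± 0.14. The NOTCH ligand JAG1 fell by 0.86 ± 0.19. Follistatin (FST), which binds activin, fell from 147 to 22.7 CPM (-2.70 ± 0.11), and ID2 rose by 1.12 ± 0.16. In the matrix list, the crosslinking oxidase LOX fell from 125 to 26.9 CPM (-2.22 ± 0.19) and CEMIP by 3.16 ± 0.24, while COL18A1 and LAMC1 rose by 1.16 ± 0.16 and 1.16 ± 0.18. Alpha-fetoprotein (AFP) did not pass the test (0.36 ± 0.15), and the oncofetal RNA-binding LIN28B fell by 1.11 ± 0.07.

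Beyond these lists, the largest rises were taken among called genes without overlap and with at least 5 CPM in the higher group. PLA2G1B, a secreted phospholipase, stood at 0.333, 0.449 and 0.433 CPM and 7.99, 6.37 and 3.85 CPM (3.89 ± 0.31). The chloride channel CLIC3 went from 0.654 to 6.18 CPM (3.23 ± 0.40), PLEK2 from 0.812 to 9.04 CPM (3.47 ± 0.23) and the betaine carrier SLC6A12 from 3.07 to 27.1 CPM (3.14 ± 0.23). PGLYRP2, a secreted amidase of bacterial cell walls, rose by 2.88 ± 0.27. SFXN3 rose by 3.34 ± 0.65, with an uneven 56.5, 10.8 and 20.7 CPM with sorafenib. PLEKHM1 was at 0 counts in all 3 DMSO libraries and held 629 counts over the sorafenib libraries, which is at least 204-fold higher taking 3 counts over the DMSO group as the limit. PLEKHM1 has a close pseudogene copy, so its counts and the fold taken from them are uncertain.

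The largest falls outside the lists were in the homeobox gene HOXD1, from 67.6 to 2.86 CPM (-4.56 ± 0.15), the carrier SLC16A6, from 6.66 to 0.358 CPM (-4.22 ± 0.60), and the amino acid carrier SLC6A14, from 48.8 to 4.66 CPM (-3.37 ± 0.24). WDR46, of ribosome biogenesis, was at 29.5, 18.3 and 5.82 CPM and 1.01, 0 and 0 CPM. Its call was lost without DMSO replicate 1 or 2, or without any 1 of the 3 sorafenib replicates. Whether Salmon assigned reads of WDR46 to another copy was not tested, so its counts are uncertain.

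The same contrast in wild type gives a comparison from separate libraries. A test of the difference in response (interaction) called 107 genes (0.835%), of which 91 were also called in ARID1B-KO. The response lay further from 0 in ARID1B-KO with the same sign for 50 of the 107, nearer to 0 for 20, and the signs were opposite for 37. This count depended on the settings. It was 2 with transcript length in the model and 19 with a replicate block, and 584 by the Wald test of DESeq2. Leaving out a single ARID1B-KO library gave 12 to 25, except for sorafenib replicate 3, without which it was 138.

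ETV4, with -4.30 ± 0.11 in ARID1B-KO and -3.31 ± 0.10 in wild type, differed by -0.99 ± 0.14 (edgeR adjusted p = 0.0136). ETV5 (-0.74 ± 0.12) and SPRED2 (-0.57 ± 0.11) also fell further in ARID1B-KO. DUSP6, at -2.98 ± 0.15 in wild type, and SPRY4, at -3.50 ± 0.16, did not pass this test (adjusted p = 0.492 and 0.0531 in edgeR). BMF rose by 2.97 ± 0.10 in wild type, a difference of 0.72 ± 0.13. Among replication and cell cycle genes, MCM7 (-0.52 ± 0.11), UHRF1 (-0.60 ± 0.12) and E2F2 (-0.80 ± 0.15) passed it, as did NOLC1 (-0.58 ± 0.10) and FKBP4 (-0.57 ± 0.12). In each of these 5 the response in ARID1B-KO lay further below 0. PXR (NR1I2) rose more in ARID1B-KO (0.90 ± 0.18) and HMGCS1 less (-0.69 ± 0.14).

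**Figure D4:**
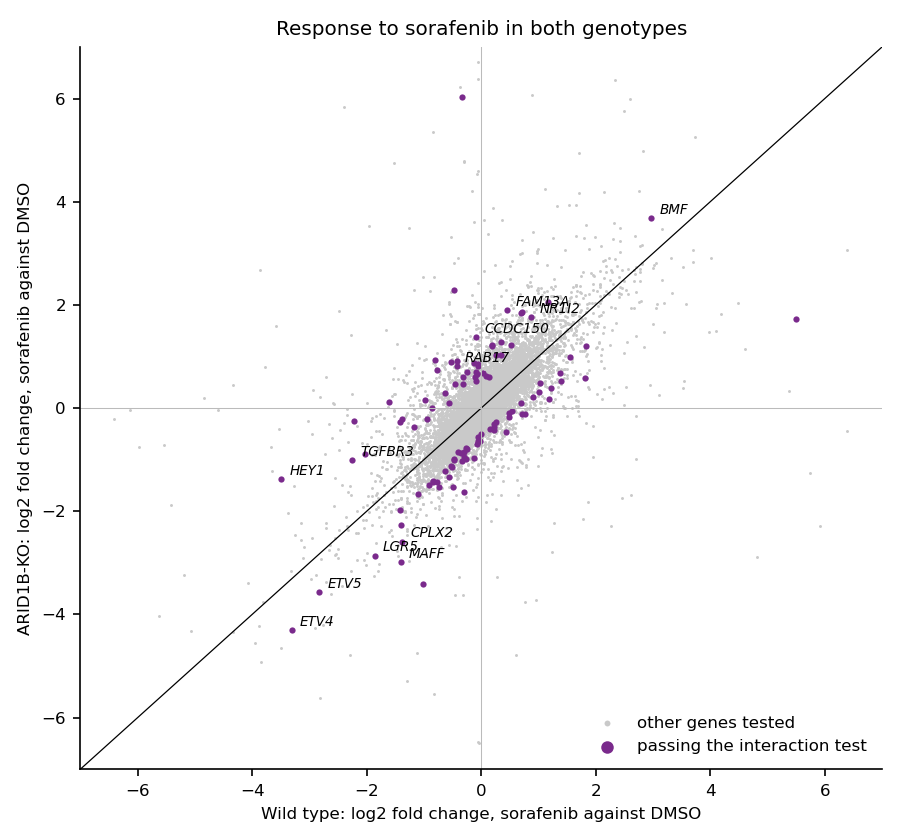
Log2 fold change of sorafenib against DMSO for each gene tested, in wild type (x) and in ARID1B-KO (y), with the line of equal response and the 107 genes that passed the interaction test in purple. The axes end at 7, which leaves 29 genes outside, and MAFF, ETV4 and LGR5 lie below the line while CCDC150, FAM13A and RAB17 lie above it.

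The largest differences among genes called in both tests, with at least 5 CPM in the higher ARID1B-KO group, were in MAFF and CCDC150. MAFF, a small MAF transcription factor, stood at 6.13, 7.46 and 5.77 CPM with DMSO and 1.18, 0.642 and 0.592 CPM with sorafenib in ARID1B-KO, against 9.03, 9.69 and 10.8 and 4.09, 3.54 and 3.43 CPM in wild type. The difference was -1.57 ± 0.31 (edgeR adjusted p = 0.0399). CCDC150 stood at 8.94, 9.30 and 9.57 and 22.5, 22.3 and 27.2 CPM in ARID1B-KO, and at 7.05, 7.30 and 7.68 and 7.50, 6.08 and 7.03 CPM in wild type, a difference of 1.47 ± 0.17. FAM13A (1.45 ± 0.30), ZNF117 (1.41 ± 0.16), RAB17 (1.25 ± 0.14), TGFBR3 (1.24 ± 0.25), PTPRH (1.16 ± 0.17), TINAGL1 (1.15 ± 0.22) and FILIP1L (1.13 ± 0.17) had more positive or less negative changes in ARID1B-KO. SSUH2 (-1.33 ± 0.13), MRAS (-1.25 ± 0.18) and CPLX2 (-1.20 ± 0.21) had lower changes there.

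Transcript usage was tested as the share of a gene's TPM held by each transcript, for 17488 transcripts of 6021 genes. The limma test called 17 transcripts (0.0972%), and 13 of these moved by at least 20 percentage points with no overlap. In 10 of the 13 the transcript was listed at 0 in all 3 libraries of one group. Fitting the 6 ARID1B-KO libraries alone called 9 transcripts, which included only 2 of the 13 switches, TMEM63B-204 being the one of them named here. With a replicate block 6 of the 13 kept their call. Leaving out the libraries in turn, 19 to 64 transcripts were called. The count was 64 without sorafenib replicate 1, 35 without DMSO replicate 3 and 29 without sorafenib replicate 3.

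**Figure D5:**
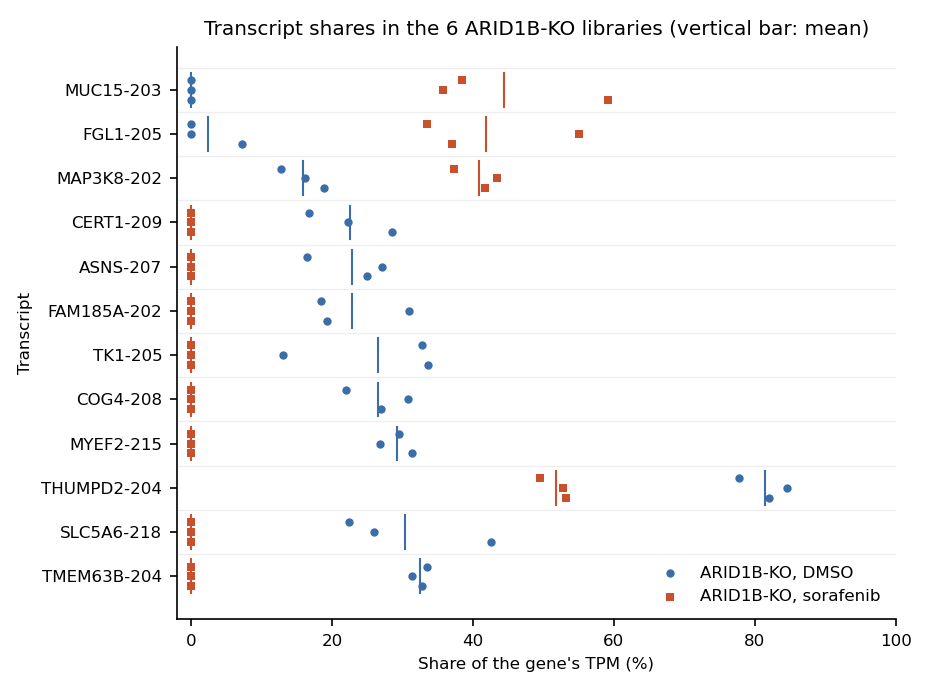
Share of the gene's TPM, in percent, held by 12 of the switched transcripts in each ARID1B-KO library, with DMSO as circles, sorafenib as squares and group means as vertical bars. Most sit at 0 in one group, and MAP3K8-202 and THUMPD2-204 are above 0 in all 6 libraries.

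THUMPD2-204, a coding transcript of an RNA methyltransferase gene, held 82.0, 84.5 and 77.8% of its gene with DMSO and 53.2, 52.7 and 49.5% with sorafenib (limma adjusted p = 0.0208). MAP3K8-202, of the kinase TPL2 that activates MEK, held 18.8, 16.2 and 12.8% and 41.7, 43.4 and 37.4%. In wild type it held 21, 15.3 and 19.6% and 28.5, 32.8 and 25.7%. FGL1-205, of a secreted liver protein, held 7.18, 0 and 0% and 37.0, 55.0 and 33.4%, and MUC15-203 was at 0 and then at 59.1, 35.8 and 38.4%. ASNS-207 went from 24.9, 27.1 and 16.4% to 0 as its gene fell. TMEM63B-204, SLC5A6-218, MYEF2-215, COG4-208 and TK1-205 also went to 0 with sorafenib. In wild type TMEM63B-204, SLC5A6-218, COG4-208 and TK1-205 were above 0 in all 6 libraries, whereas MYEF2-215 was at 0 with sorafenib there too. CERT1-209 went from 28.5, 22.3 and 16.8% to 0 in ARID1B-KO, and in wild type from 0 to 22.9, 18.5 and 21.4%.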

How the data were processed

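PolyA RNA of 12 HepG2 libraries, 3 per group, was sequenced with paired 75 bp reads, per the labels' protocols. The authors deposited a Salmon table for each library, with estimated counts and TPM per transcript. Salmon, DESeq2 1.46.0 and GRCh38 are named per the submitters' processing notes, and the design text names Ensembl 109. The Salmon version, strand setting and bias corrections are not given in the sources used here. Salmon splits reads among near-identical transcripts, which makes close gene copies uncertain, and PCR duplicates were not separated.

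Counts were summed to genes by transcript identifier without its version, through GENCODE 44. Of 177456 transcripts, 165533 (93.3%) matched, giving 35810 genes. The unmatched transcripts held 2.87% to 3.18% of the counts in the 6 ARID1B-KO libraries and were left out. Summed counts were rounded and tested with edgeR 4.0.16 (R 4.3.3) by the quasi-likelihood F test over all 12 libraries with 1 mean per group, TMM factors and edgeR's filter on low counts, which left 12821 genes. Adjusted p-values are Benjamini-Hochberg over all of them, and 0.05 was the threshold. The p-values weigh each group difference against the spread between replicates, estimated over all groups. Whether they cover differences between knockout clones cannot be told, as the number of clones is not stated. Transcript shares of TPM were tested with limma 3.58.1 on the arcsine square root scale, for genes with at least 5 TPM in both ARID1B-KO groups and transcripts with at least 10% in one group. Both procedures were tested on simulated data. The gene simulation changed 200 genes and gave every gene the same spread, so it does not cover a response of 46.7% of genes. In the usage simulation no expressed transcript was lost from a group, so it does not cover switches where a transcript is absent from 1 group. Alternatives were other scaling, DESeq2 1.42.0, no filter, only 6 libraries, a replicate block, transcript length and each library left out.

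The members and gene lists were chosen with earlier results of these data known. Genes named were ARID1B, a fixed set, the 4 of each list with the smallest adjusted p, the 12 largest rises, falls and interactions with at least 5 CPM, and the 8 largest transcript switches. Exceptions within lists, members that moved the other way and members not called were chosen after their values were seen. So were the genes whose promoters are printed and the transcripts TK1-205, MAP3K8-202, ASNS-207 and CERT1-209. Some genes that this rule names are not reported here.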

Additional observations from a re-analysis of the deposited data

Results flagged for a closer look

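A difference in response between ARID1B-KO and wild type, by the interaction test of edgeR, marked 30 of the 273 genes looked at singly. Each value here is the log2 fold change in ARID1B-KO minus that in wild type. Among ERK targets it was -0.99 for ETV4, -0.74 for ETV5 and -0.57 for SPRED2, so all 3 fell further in ARID1B-KO. Of cell cycle and replication genes it was -0.52 for MCM7, -0.60 for UHRF1 and -0.80 for E2F2. It was -0.58 for NOLC1, of the nucleolus, and -0.57 for FKBP4, an HSP90 partner.

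Death and stress genes were marked as well, with 0.72 for BMF, 0.70 for TP53INP1, 0.72 for TXNIP and -0.71 for HMOX1. HMOX1 rose by 0.67 ± 0.09 in ARID1B-KO and by 1.38 ± 0.09 in wild type. TXNIP did not pass the test in ARID1B-KO (-0.22) and stood at -0.94 in wild type. For liver regulators and sterol synthesis the difference was 0.90 for NR1I2, -0.68 for CEBPA and -0.69 for HMGCS1. LGR5 had -1.0. HEY1, a Notch target, had 2.12, with 1.85, 1.66 and 2.16 CPM falling to 0.968, 0.688 and 0.494 CPM in ARID1B-KO and 9.51, 10.3 and 10.2 to 0.861, 0.814 and 0.963 CPM in wild type. H4C15 had 6.37, from counts that can be shared with a near-identical copy.

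The remaining genes were MAFF (-1.57), CCDC150 (1.47), FAM13A (1.45), ZNF117 (1.41), SSUH2 (-1.33), RAB17 (1.25), MRAS (-1.25), TGFBR3 (1.24), CPLX2 (-1.20), PTPRH (1.16), TINAGL1 (1.15) and FILIP1L (1.13). Of these 30 differences, those of RAB17 and SSUH2 passed the test under every alternative setting, and the others did not.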

How the results depend on the processing

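Of the 241 named genes called in ARID1B-KO, 215 kept their call and direction under all 13 alternative settings and 226 under the 6 that leave out a library. The number called, 5982, stayed within 1.5 times of itself under every setting, from 4089 with transcript length in the model to 6264 by DESeq2. Genes called higher went from 2947 to 1962 with transcript length. TIGAR changed sign there (0.34 on the log2 scale, from -0.47). The interaction count of 107 was less stable. It was 19 with the replicate block, 2 with transcript length and 584 by DESeq2, and 12 to 138 with a library left out. For transcript usage, 17 calls became 30 with a gene minimum of 1 TPM, and 9 each with a share minimum of 20%, with the 6 ARID1B-KO libraries alone and with the replicate block, and 19 to 64 with a library left out. The 13 switches became 25 with the 1 TPM minimum and 6 with the block, and 15 to 46 with a library left out. The cause was not tested in any of these. Of 94 counts of list members called higher or lower, 36 moved by over 1.5 times under some setting and 23 with a library left out, mostly counts of 5 or fewer. Named genes that were not called but passed under at least 1 setting were AFP, ATF4, CCNB1, DDIT3, DUSP5, FOS, GPX4, NQO1, TTR and TXNIP.

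By the correlations of deviations, replicate numbers were not taken to pair the libraries, since not every pair passed 0.1. The second principal component did follow the number, at 27.6, -2.39 and -25.32 in the DMSO and 25.02, 7.61 and -32.52 in the sorafenib libraries. The correlation of deviations between same-numbered DMSO and sorafenib libraries was 0.089, -0.021 and 0.184, and DMSO replicate 1 correlated better with sorafenib replicate 2 (0.099). The replicate block called 5818 genes. With 3 libraries a group, changes in genes of few counts are the least certain.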
